A study of Saccharomyces cerevisiae with 4 samples.

Results

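MET28, MET32, MET30 and CBF1 are genes of the regulators that set the level of sulfur amino acid synthesis in the budding yeast Saccharomyces cerevisiae. The 4 genes were taken by name, of 6002 protein-coding nuclear genes, and a peak was counted for a gene when its interval overlapped the 1000 bp upstream of the start codon. These stretches held 15 of the 6744 deposited peaks. Of the 15, 7 were Cbf1 peaks and 8 were Pho4 peaks.

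The series mapped the transcription factors Cbf1 and Pho4 by ChIP-nexus, in which the immunoprecipitated DNA is digested by an exonuclease that halts at the crosslinked factor. The 2 Cbf1 libraries came from strain W303 Z1497 with the genotype CBF1::9myc::TRP1, and the 2 Pho4 libraries from strain W303 Z1441 with the genotype PHO4::9myc::TRP1. All were precipitated with the antibody ab9E10 against the Myc tag, after growth in rich medium and 2 h at 25 °C without phosphate, a treatment given to induce Pho4 that the labels also attach to Cbf1. Each factor was read in a single tagged strain, no input or untagged library was used here, and the labels do not say whether replicates were separate cultures, so the spread between them may be technical.

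Sulfur amino acid genes are switched on by Met4, an activator that does not bind DNA by itself. Cbf1, a basic helix-loop-helix protein, recruits Met4 to the E-box CACGTG, where the basic leucine zipper protein Met28 strengthens the complex. The related zinc finger proteins Met31 and Met32 recruit Met4 to other sites, which share the core CTGTGG. Met30 is the F-box subunit of a ubiquitin ligase that holds Met4 back when sulfur is plentiful. Pho4 activates genes of phosphate supply and binds the same E-box as Cbf1, with less tolerance for a T directly 5′ of the core.

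The sequences under the summits of both factors, and a second E-box of MET30 that lies inside its peaks but under no summit, are shown because they carry the sites to which the values below are referred. Each was read from the R64 reference of strain S288C (RefSeq), on the strand of the named gene, 5′ to 3′ toward its start codon, and single bases may be different in W303. Capitals mark the E-box CACGTG and the Met31 and Met32 core CTGTGG, which on the printed strands reads as its reverse complement CCACAG. At CBF1 they also mark a neighbouring copy of a related, weaker site, CACGTT.
MET28, chrIX:384219-384413, minus strand: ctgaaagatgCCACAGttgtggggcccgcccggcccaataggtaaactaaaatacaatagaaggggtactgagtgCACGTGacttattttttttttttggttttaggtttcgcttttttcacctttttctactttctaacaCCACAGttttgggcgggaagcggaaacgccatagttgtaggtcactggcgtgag
MET32, chrIV:964876-964974, minus strand: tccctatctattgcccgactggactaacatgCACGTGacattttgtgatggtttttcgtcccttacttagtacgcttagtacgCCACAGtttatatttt
MET30, chrIX:268010-268073, plus strand: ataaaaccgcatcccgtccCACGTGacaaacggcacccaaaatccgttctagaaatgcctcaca
MET30, second E-box, chrIX:268464-268504, plus strand: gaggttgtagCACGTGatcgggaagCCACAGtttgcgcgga
CBF1, chrX:548572-548617, plus strand: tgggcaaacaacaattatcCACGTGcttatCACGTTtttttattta

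All 4 promoters held CACGTG, which occurred in 10.8% of 5996 promoters of the same length. The E-boxes shown for MET28, MET32 and MET30 read CACGTGa on the printed strand, so the opposite strand has a T 5′ of the core. The E-box of CBF1 reads cCACGTGc and has no such T on either strand. The E-box with a 5′ T, TCACGTG, which contains the first motif, was found at 3 of the 4 genes and in 7.52% of all promoters.

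The Met31 and Met32 core CTGTGG was present upstream of MET28, MET32 and MET30 and absent from the 1000 bp upstream of CBF1. It occurred in 27.6% of all promoters, and CACGTG and CTGTGG occurred together in 2.75%. MET28 had 2 copies, centred 150.5 and 281.5 bp upstream, and MET32 and MET30 had 1 each. CACGTT, a weaker Pho4 site, was present at CBF1 alone of the 4 genes and in 28.5% of all promoters. The longer element where Met28 and Met4 join Cbf1, known as RYAAT, matched at none of the 4 genes and in 0.3% of all promoters. Its AAT and the E-box at the spacing of the element, without the outer bases, matched at MET32 alone of the 4 genes and in 0.951% of all promoters. All motifs were searched on both strands, and a match is a description of the sequence.

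The lists end at different places in the genome. Chromosomes were ordered by name as text, in which IX comes before VII and X after it. Cbf1 replicate 1 stopped on chromosome VII, so MET28, MET32 and MET30 were reached by 4 lists and CBF1, on chromosome X, by the other 3. Over the region shared by the 4 lists, the authors' fold, the ratio of summit height to local background, had medians of 2.18 and 2.80 in the Cbf1 lists and 3.09 and 3.43 in the Pho4 lists. Read totals are not part of the lists. The summit heights implied by the fold and p columns, over all peaks of each whole list, had medians of 64 and 50 reads in the Cbf1 lists and 72 and 44.5 reads in the Pho4 lists. The factors were interleaved by this measure, which depends on the peaks that were called and does not give sequencing depth.

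Every gene had a peak in every list that reached it. Among the 2508 genes reached by all 4 lists, 24.1% had an upstream peak in both Cbf1 lists, 33.6% had it in both Pho4 lists, and 17.1% had it in all 4. MET28, MET32 and MET30 were among the 429 genes of the last kind. In single lists the share was 31.0% and 29.0% for Cbf1 and 41.7% and 37.4% for Pho4. For CBF1 the matching figure was 18.8% of 4584 genes with a peak in all 3 lists. Each stretch held a single peak per list, so each value below belongs to 1 summit.

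**Figure D1:**
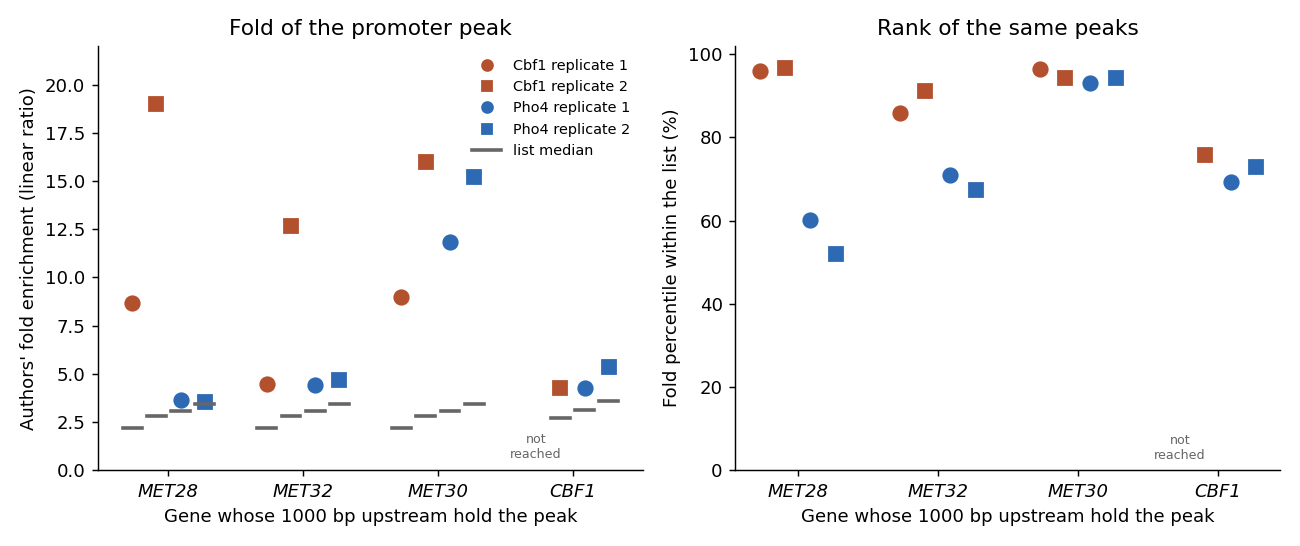
Left, the authors' fold enrichment of the peak upstream of each gene (linear axis), with each list's median as a grey bar; right, the percentage of peaks in the same list with a lower fold. Cbf1 lists are brown, Pho4 lists are blue, circles are replicate 1 and squares replicate 2. MET28 lies between 96.1 and 96.6 in the Cbf1 lists and between 52.1 and 60.2 in the Pho4 lists.

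MET28 (YIR017C, chromosome IX, 383556 to 384119, minus strand) encodes the leucine zipper cofactor of the Cbf1 and Met4 complex, and it separated the factors most clearly. Its Cbf1 peaks had folds of 8.69 and 19.0 in replicates 1 and 2, and its Pho4 peaks had folds of 3.64 and 3.52. Both Cbf1 values lay above both Pho4 values, an order found at 18.4% of the 429 genes with a peak in all 4 lists, while the opposite order was found at 49.7%. The Cbf1 peaks ranked 36 of 920 and 29 of 853 by fold, whereas the Pho4 peaks ranked 440 of 1105 and 451 of 941, near the middle of their lists. By the authors' −log10 q per summit the Pho4 peaks ranked higher, at 294 and 299, and the Cbf1 peaks ranked 32 and 34. The mean log2 fold was 3.68 ± 0.80 for Cbf1 and 1.84 ± 0.03 for Pho4 (SD, n = 2 each).

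The Cbf1 minus Pho4 difference of 1.84 on the log2 scale exceeded the gap of 1.13 between the Cbf1 replicates. Its two-sided exact permutation p was 0.333, the smallest that 2 libraries against 2 can give, which also limits every other test of 4 libraries below. The median difference over the 429 genes was -0.35, and MET28 ranked 10 among them from the Cbf1 side. Without Cbf1 replicate 1 the difference was 2.41, and without Cbf1 replicate 2 it was 1.28. Neighbouring genes that share a peak each count among the 429.

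The summits of the factors also lay apart at MET28. The Cbf1 summits stood 221 and 220 bp upstream of the start codon, 4.5 and 3.5 bp from the centre of the E-box shown above. The Pho4 summits stood 110 and 144 bp upstream, 106.5 and 72.5 bp from the same E-box. The means of 220.5 ± 0.707 bp for Cbf1 and 127 ± 24.0 bp for Pho4 (SD, n = 2 each) differed by 93.5 bp, more than the 34 bp between the Pho4 replicates (two-sided exact permutation p 0.333). The Pho4 summits lay closer to the proximal CTGTGG, at 40.5 and 6.5 bp from its centre, against 70.5 and 69.5 bp for the Cbf1 summits.

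Both factors gave wide peaks at MET28, of 1333 and 898 bp for Cbf1 and 1065 and 1004 bp for Pho4. The Pho4 widths exceeded 98.9% and 98.5% of their lists, although the folds were ordinary. All 4 intervals ran across the 489 bp between MET28 and the divergent gene YAP5 and entered both genes. They also covered a second E-box without a 5′ T, 558.5 bp upstream of MET28 and inside YAP5, and the nearest summit lay 337.5 bp from it. The peaks therefore belong as much to the upstream sequence of YAP5, from whose start the Cbf1 summits lay 269 and 270 bp and the Pho4 summits 380 and 346 bp.

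**Figure D2:**
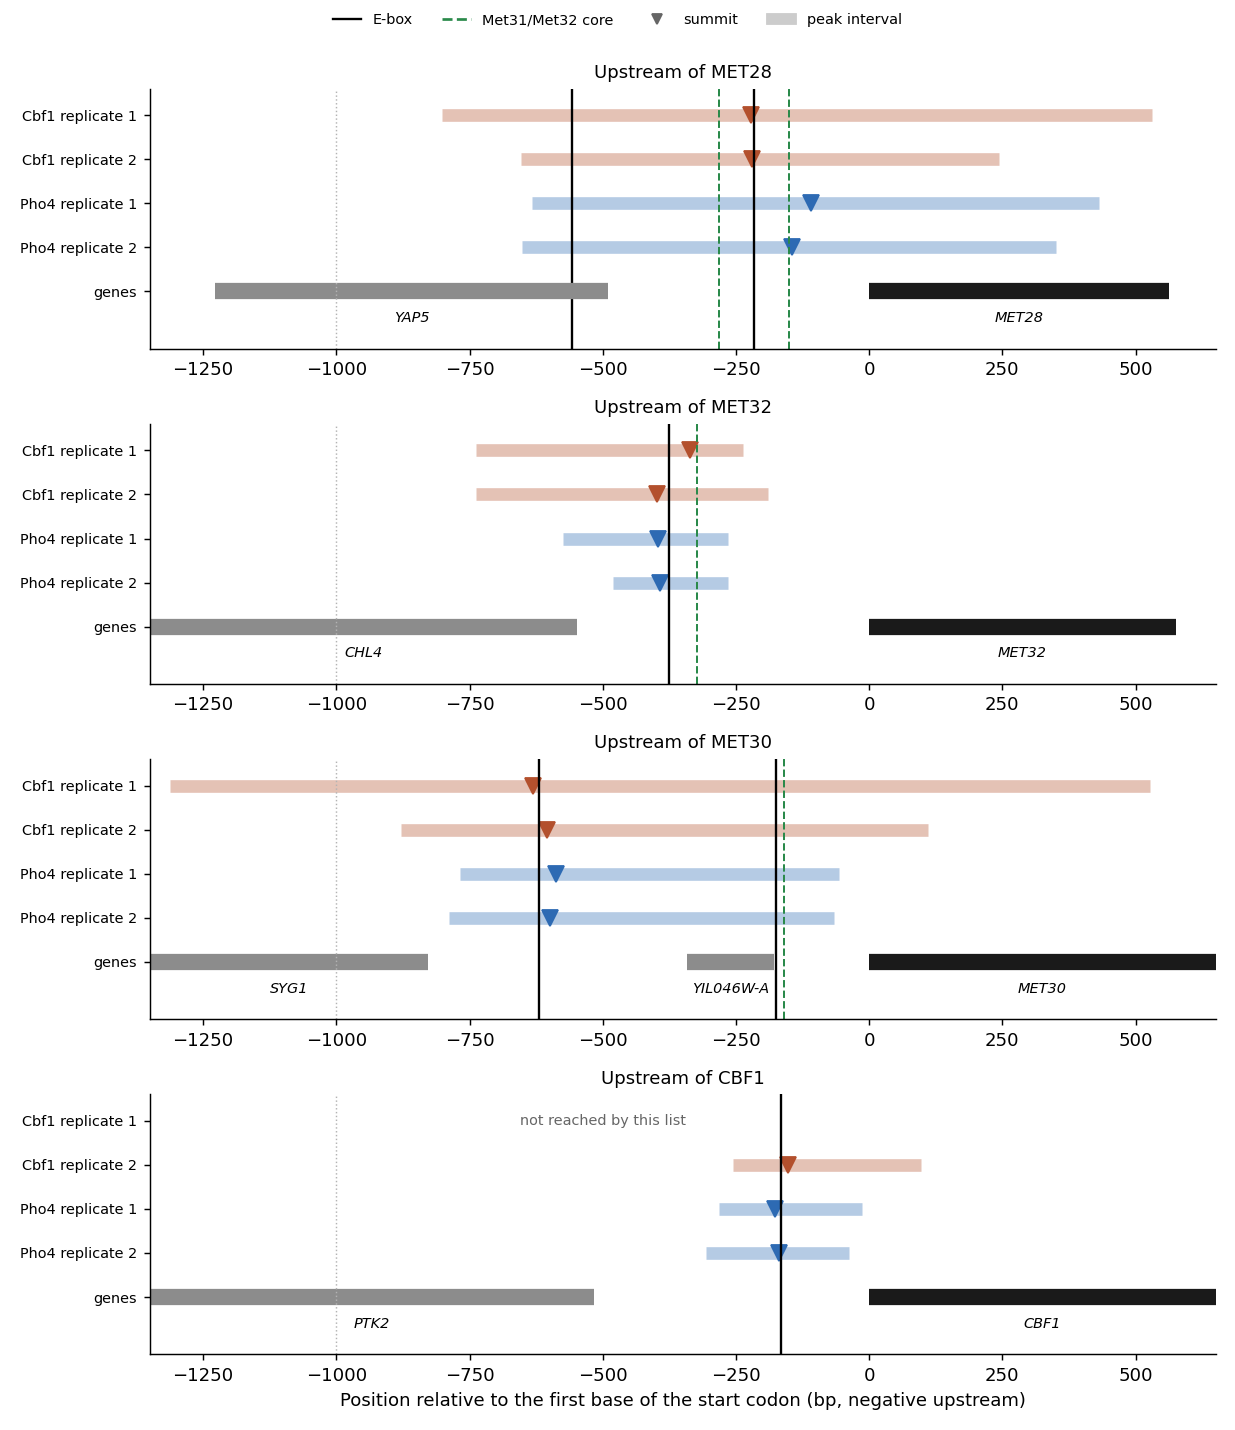
Peak intervals (pale bars) and summits (triangles) of the 4 lists upstream of each gene, by position relative to the start codon in bp. Black lines are E-boxes, dashed green lines are CTGTGG cores, the dotted line marks 1000 bp upstream, and genes are drawn below. At MET28 the Cbf1 summits at 221 and 220 bp sit on the E-box, and the Pho4 summits at 110 and 144 bp lie between it and the gene.

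MET32 (YDR253C, chromosome IV, 963990 to 964565, minus strand) encodes a zinc finger protein that brings Met4 to CTGTGG sites. Its Cbf1 peaks had folds of 4.49 and 12.7, and its Pho4 peaks had folds of 4.42 and 4.66. The groups overlapped, since Cbf1 replicate 1 lay between the Pho4 values and Cbf1 replicate 2 lay far above them. The mean log2 fold was 2.91 ± 1.06 for Cbf1 and 2.18 ± 0.05 for Pho4 (SD, n = 2 each). The difference of 0.73 was smaller than the gap of 1.50 between the Cbf1 replicates (two-sided exact permutation p 0.667), and without Cbf1 replicate 2 it was -0.016.

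By rank within the lists the factors did not overlap at MET32. The Cbf1 peaks ranked 130 of 920 and 75 of 853, or above 85.9% and 91.2% of their lists. The Pho4 peaks ranked 320 of 1105 and 306 of 941, or above 71.0% and 67.5% of theirs. The mean percentiles of 88.5 ± 3.77 for Cbf1 and 69.3 ± 2.52 for Pho4 (SD, n = 2 each) differed by 19.3 points, more than either gap between replicates (two-sided exact permutation p 0.333). Among peaks above the median −log10 q of their list, the difference was 37.7 points. Removing peaks of low fold from a list stretches its percentiles, so no clearer separation is read from this value. Divided by its list's median fold, the Cbf1 peak stood at 2.06 and 4.52 and the Pho4 peak at 1.43 and 1.36. This scaling was chosen after the data were seen.

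The MET32 summits stood 337 and 399 bp upstream in the Cbf1 lists and 397 and 393 bp upstream in the Pho4 lists. Cbf1 replicate 2 and both Pho4 summits fell 17.5 to 23.5 bp from the E-box centre, on its distal side. The Cbf1 replicate 1 summit lay on the other side, 38.5 bp from the E-box and 13.5 bp from the CTGTGG core. The means of 368 ± 43.8 bp for Cbf1 and 395 ± 2.83 bp for Pho4 (SD, n = 2 each) overlapped (two-sided exact permutation p of 1), and without Cbf1 replicate 1 the difference changed sign to 4 bp. MET32 shares this stretch with the divergent gene CHL4, with 547 bp between the genes, and the summits lay 211 and 149 bp from that start for Cbf1 and 151 and 155 bp for Pho4.

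MET30 (YIL046W, chromosome IX, 268651 to 270573, plus strand) encodes the F-box protein that restrains Met4. It had strong peaks of both factors, with folds of 9.00 and 16.0 in the Cbf1 lists and 11.8 and 15.2 in the Pho4 lists. The Pho4 values lay between the Cbf1 values. The mean log2 fold was 3.58 ± 0.59 for Cbf1 and 3.75 ± 0.26 for Pho4 (SD, n = 2 each), a difference of -0.16 that the replicate spread covers (two-sided exact permutation p 1). With folds divided by the list medians the difference was 0.23, without Cbf1 replicate 1 it was 0.25 and without Pho4 replicate 2 it was 0.02, so its sign was not settled.

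The MET30 peaks were near the top of every list. They ranked 32 of 920 and 48 of 853 for Cbf1 and 76 of 1105 and 53 of 941 for Pho4. The percentiles were 96.5 and 94.4 for Cbf1 and 93.1 and 94.4 for Pho4, the narrowest range of the 4 genes. Among the peaks of each list with a summit within 50 bp of an E-box that has a 5′ T on 1 strand, the MET30 peak ranked 16 of 80 and 26 of 94 for Cbf1. In the same class it ranked 8 of 86 and 5 of 75 for Pho4, where the class medians of fold were 4.21 and 5.50. MET28 ranked 19 of 80 and 16 of 94 in that class for Cbf1, and its Pho4 summits lay too far from an E-box to enter it. MET32 ranked 52 of 80 and 40 of 94 for Cbf1 and 42 of 86 and 48 of 75 for Pho4.

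All 4 MET30 summits were at the distal E-box, which is centred 619.5 bp upstream. The Cbf1 summits stood 631 and 605 bp upstream, 11.5 and 14.5 bp from that centre. The Pho4 summits stood 588 and 598 bp upstream, 31.5 and 21.5 bp from it. The Pho4 summits were both nearer to MET30 than the Cbf1 summits, with means of 618 ± 18.4 bp for Cbf1 and 593 ± 7.07 bp for Pho4 (SD, n = 2 each), but the difference of 25 bp was smaller than the 26 bp between the Cbf1 replicates (two-sided exact permutation p 0.333). It was 12 bp without Cbf1 replicate 1 and 38 bp without Cbf1 replicate 2. The second E-box, 174.5 bp upstream and next to a CTGTGG core, lay inside all 4 intervals, yet no summit came closer than 413.5 bp to it.

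The distal E-box of MET30 is nearer to other starts than to its own. The divergent gene SYG1 starts 197 and 223 bp from the Cbf1 summits and 240 and 230 bp from the Pho4 summits. The small gene YIL046W-A, which lies between the summits and MET30, starts 289 and 263 bp from the Cbf1 summits and 246 and 256 bp from the Pho4 summits. The intervals do not tell which of the 3 genes the binding serves. They were 1841 and 989 bp wide for Cbf1 and 713 and 723 bp wide for Pho4.

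**Figure D3:**
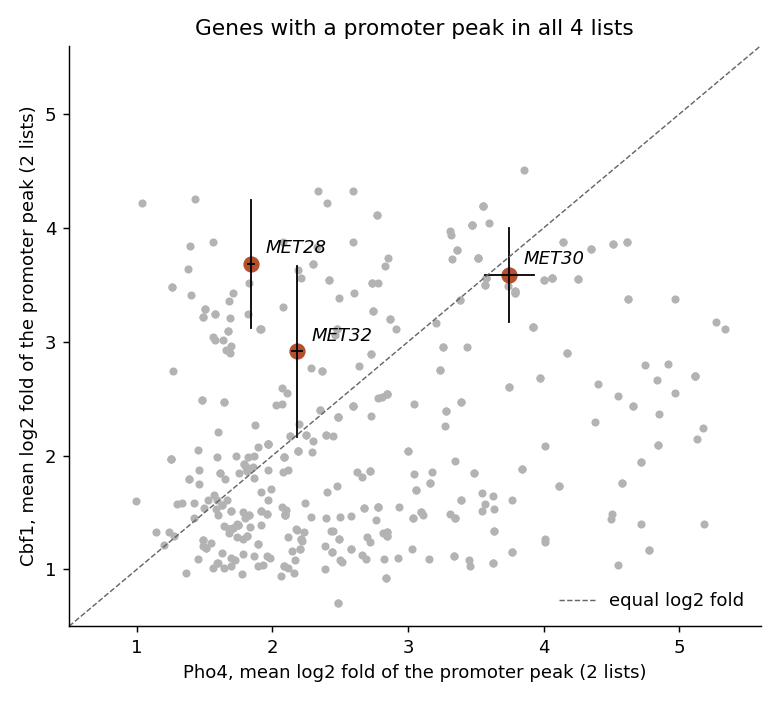
Mean log2 fold of the promoter peak in the 2 Cbf1 lists (vertical axis) against that in the 2 Pho4 lists (horizontal axis) for the 429 genes with a peak in all 4 lists. Grey points are genes, some of which share a peak, and bars on the named genes span the 2 replicates of each factor. MET28, with means of 3.68 for Cbf1 and 1.84 for Pho4, lies far above the dashed line of equal log2 fold, and MET30 lies next to it.

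CBF1 (YJR060W, chromosome X, 548759 to 549814, plus strand) encodes Cbf1 itself, so its promoter shows where the factor and Pho4 bind at the factor's own gene. It had a fold of 4.25 in Cbf1 replicate 2, the only Cbf1 list that reaches it, and folds of 4.28 and 5.35 in the Pho4 lists. The log2 fold was 2.09 for Cbf1 and 2.26 ± 0.23 for Pho4 (SD, n = 2), a difference of -0.17 (two-sided exact permutation p 0.667, with 0.333 the smallest that 1 library against 2 can give). With folds divided by the list medians the difference was 0.12. By fold the peak ranked 380 of 1566 for Cbf1 and 612 of 1990 and 450 of 1660 for Pho4.

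The order of the factors at CBF1 depended on the measure. By fold the peak exceeded 75.7% of its list for Cbf1 and 69.2% and 72.9% of theirs for Pho4. By −log10 q, which the authors computed per summit, it ranked 301 of 1566 for Cbf1 and 178 of 1990 and 151 of 1660 for Pho4. The percentile difference was 4.67 points by fold and -10.2 points by −log10 q. The implied summit height was 124 reads for Cbf1 and 612 and 330 reads for Pho4, which is 2.48 times the list's median height for Cbf1 and 8.5 and 7.42 times for Pho4.

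The local background at CBF1 was high in the Pho4 lists. It was 28.4 reads in Cbf1 replicate 2 and 142 and 60.9 reads in the Pho4 replicates, or 1.57 times the list median for Cbf1 and 6.22 and 5.16 times for Pho4. At the other 3 genes the background was 1.05 to 3.49 times the median in the Cbf1 lists and 0.716 to 2.15 times in the Pho4 lists. Each list that reaches CBF1 had 1 other peak within 5000 bp, 241 to 249 bp upstream of the neighbouring gene PTK2. That peak had an implied height of 399 reads in Cbf1 replicate 2 and of 5937 and 2232 reads in the Pho4 replicates, with folds of 13.0 for Cbf1 and 40.9 and 35.8 for Pho4. Its part in the background at CBF1 was not tested.

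**Figure D4:**
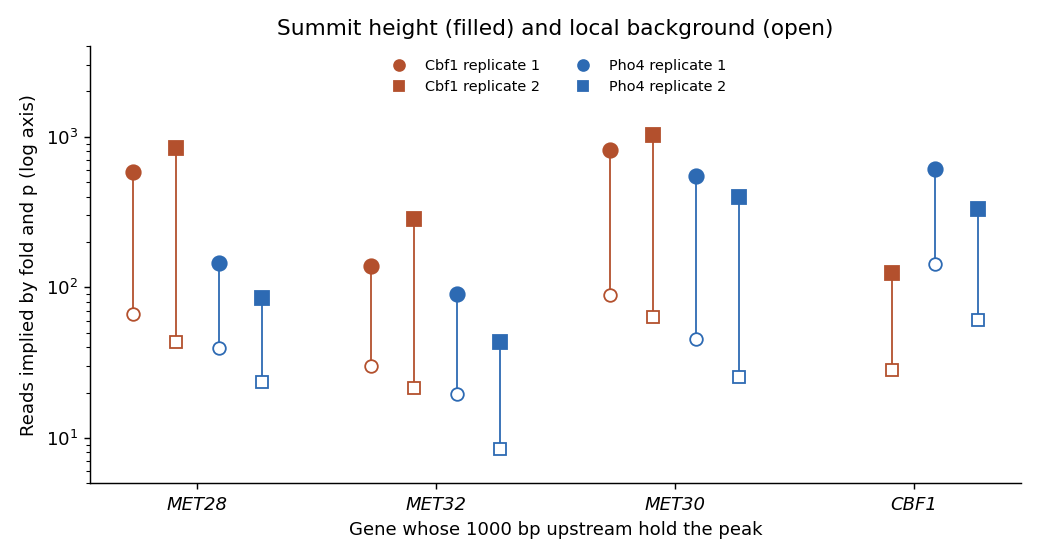
Summit height (filled) and local background (open), in reads implied by the fold and p columns, for the peak upstream of each gene on a log axis. Cbf1 lists are brown and Pho4 lists are blue, with circles for replicate 1 and squares for replicate 2. At CBF1 the Pho4 heights of 612 and 330 reads stand over backgrounds of 142 and 60.9 reads, and the first of these is the highest background drawn.

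The CBF1 summits lay within 12.5 bp of the centre of its single E-box, but the Cbf1 summit was nearer to another site. The Cbf1 summit stood 153 bp upstream, 12.5 bp from the E-box centre and 1.5 bp from the centre of the neighbouring CACGTT. The Pho4 summits stood 177 and 169 bp upstream, 11.5 and 3.5 bp from the E-box centre and 22.5 and 14.5 bp from that of CACGTT. The Cbf1 summit was nearer to the start codon by 20 bp on average. With 1 Cbf1 library here the spread between Cbf1 replicates is unknown. It was 1 bp at MET28, 26 bp at MET30 and 62 bp at MET32, so the 20 bp cannot be told from replicate error. Among the peaks at E-boxes without a 5′ T, the CBF1 peak ranked 40 of 93 for Cbf1 and 175 of 239 and 154 of 232 for Pho4, where the class medians of fold were 3.93 for Cbf1 and 7.75 and 8.48 for Pho4.

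Across the 4 genes, the implied summit heights of Cbf1 ran from 124 to 1026 reads and those of Pho4 from 43 to 612 reads. MET30 was the highest in both Cbf1 lists, at 810 and 1026 reads, and MET32 was the lowest in both Pho4 lists, at 90 and 43 reads. Fold put the genes in the order MET28, MET30, MET32 and CBF1 in Cbf1 replicate 2, and MET30, MET28 and MET32 in Cbf1 replicate 1, where MET30 and MET28 were close, at 9.00 and 8.69. In both Pho4 lists MET30 came first and MET28 last, with MET32 and CBF1 between them.

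Other genes of the sulfur network give a frame for these values. Of 32 listed genes, 13 were reached by all 4 lists, and 8 of these had an upstream peak in both Cbf1 lists and 10 in both Pho4 lists, beside 24.1% and 33.6% of all genes. The 8 were CDC34, MET10, MET6, MET13, SAM2, CYS3, CYS4 and MUP1, and all of them were among the 10. Such overlap was common, since 429 of all 604 genes with a peak in both Cbf1 lists had it in both Pho4 lists too. The counts were 7 and 10 with 500 bp upstream and also with the summit inside the 1000 bp. They were 7 and 8 among peaks above the median −log10 q of their list. The shares of all genes under these other settings were not computed. These counts therefore cannot be set against 24.1% and 33.6%. MUP1 was counted through Cbf1 summits at different places, 315 bp upstream in replicate 1 and 1061 bp upstream in replicate 2. MET8, SKP1 and CDC53 did not have a peak in both lists of either factor, and STR3 and SUL1 had one in both Pho4 lists but not in both Cbf1 lists.

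Among Met30's partners in its ubiquitin ligase, CDC34, the ubiquitin-conjugating enzyme, had folds of 8.07 and 16.9 in the Cbf1 lists and 15.5 and 16.7 in the Pho4 lists, with the Pho4 values between the Cbf1 values as at MET30. The gene PST1 had the same mean log2 folds as CDC34 for both factors, as genes that share a peak do. SKP1, the adaptor that holds the F-box protein, and CDC53, the cullin scaffold, had no peak in any list. HRT1, MET4 and MET31 were reached by Pho4 replicate 2 alone. In that list MET4 had a fold of 14.2 with the summit 325 bp upstream, HRT1 had a fold of 20.5 with the summit 1025 bp upstream, and MET31 had no peak.

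Among the listed enzymes and transporters that all 4 lists reach, MET6, MET13 and CYS3 had the highest mean Cbf1 percentiles. MET6, methionine synthase, had folds of 12.4 and 24.3 for Cbf1 and 5.89 and 7.89 for Pho4. CYS3, cystathionine gamma-lyase, had folds of 6.96 and 16.7 for Cbf1 and 3.90 and 2.74 for Pho4. At both MET6 and CYS3 the Cbf1 values lay above the Pho4 values, as at MET28. The CYS3 summits lay 230 and 241 bp upstream for Cbf1 and 247 and 248 bp upstream for Pho4, closer together than at MET28. For Pho4 the highest among the same genes were MET13, STR3 and CYS4. MET13, a methylenetetrahydrofolate reductase, had folds of 10.5 and 20.0 for Cbf1 and 24.7 and 21.1 for Pho4. STR3, cystathionine beta-lyase, had a fold of 1.99 in Cbf1 replicate 1, no peak in Cbf1 replicate 2, and folds of 11.9 and 12.2 for Pho4. CYS4, cystathionine beta-synthase, had folds of 4.68 and 9.66 for Cbf1 and 8.54 and 10.4 for Pho4. The genes IES5, SOH1 and GTO1 had the same mean log2 folds for both factors as MET6, MET13 and CYS4, as genes that share a peak do. The peaks of MET6, MET13 and CYS4 are therefore not particular to the sulfur genes.

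**Figure D5:**
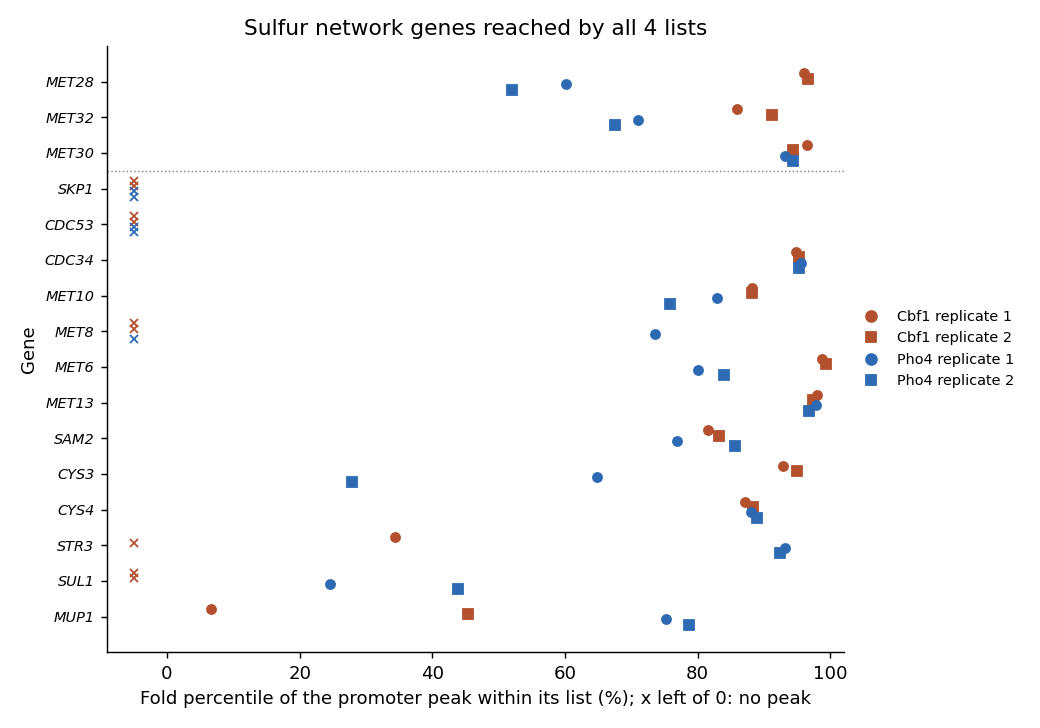
Fold percentile of the promoter peak within its list (horizontal axis) for MET28, MET32 and MET30, above the dotted line, and for the 13 listed genes reached by all 4 lists, below it. Cbf1 lists are brown, Pho4 lists are blue, circles are replicate 1, squares are replicate 2, and a cross marks a list without a peak. In percentile, MET28 stands at 96.1 and 96.6 for Cbf1 and at 60.2 and 52.1 for Pho4. CYS3 resembles MET28 at 92.8 and 95.0 for Cbf1 and 64.9 in Pho4 replicate 1, but stands lower, at 27.8, in Pho4 replicate 2. MET30 resembles CDC34 and MET13. At MET13 the summits of the factors lie further apart than at MET30.

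Genes of the most similar pattern were found by the Euclidean distance over the log2 folds of the lists that reach each gene, leaving out genes that share a peak with it. For MET28 they were PIC2, UBC4 and SPC25, at distances of 0.45 to 0.52 over 4 lists, with folds of 7.81 to 22.4 in the Cbf1 lists and 2.67 to 4.66 in the Pho4 lists. For MET32 they were BMH1, YGL041C-B and YGR016W, at 0.30 to 0.57. For MET30 they were NAG1 and GSC2, which share a peak, and CLD1, at 0.28 to 0.34. For CBF1 they were SEN15, MAE1 and TFA1, at 0.19 to 0.21 over 3 lists, and MAE1 and TFA1 had the same folds in each.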

How the data were processed

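The 4 deposited files are narrowPeak lists, 1 per library, so replicates were not pooled. The submitters' processing notes name cutadapt 1.8.1, Bowtie 1.1.2, SAMtools 1.3.1, bedtools, MACS2 2.1.1 and the build sacCer3, with no role or threshold. The authors' fold enrichment is a ratio, their −log10 p and −log10 q columns are per summit, and the deposited score column was not used. No peak ran past an R64 chromosome end. The members, gene lists, motifs and tests were chosen with earlier results of these data known.

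A peak was assigned by an overlap of at least 1 bp with the 1000 bp upstream, and if several did so the one of highest fold was taken. Percentiles and ranks use the nuclear region that all lists reaching the gene share. The height k and background b solve fold = (k + 1)/(b + 1) where p is a Poisson upper tail beyond k; 97.9% to 99.3% of peaks matched within 0.001 (scaled up above a −log10 p of 250), against 0.814% to 2.25% with p values shuffled among peaks. Factors were compared by exact permutation over the 6 assignments of 4 libraries, two-sided. The procedures were tested on simulated data. Values are given for all 4 members, each listed regulator and ligase partner, the 3 other listed genes of highest mean fold percentile per factor among those all 4 lists reach, and the 3 genes of closest pattern per member. Cbf1 summit positions are also given for MUP1. Alternatives were 500 bp, summits inside the 1000 bp, peaks above the list's median −log10 q (the upper 50%), equal list lengths, the peak nearest the start, ranking by −log10 q, whole lists, each library left out and a replicate block. Python 3.11.15, numpy 2.4.6 and pandas 2.3.3 were used.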

Additional observations from a re-analysis of the deposited data

How the results depend on the processing

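Under the alternatives, 7 differences between the factors changed sign. A setting that keeps the same peaks leaves fold and position the same by construction. With single libraries left out, the Cbf1 minus Pho4 difference at MET32 ran from -0.016 to 1.48 in log2 fold and from -58 to 4 bp in summit position, and that at MET30 ran from -0.58 to 0.25 in log2 fold. With folds divided by the list medians, chosen after the data were seen, the difference was 0.23 at MET30 and 0.12 at CBF1, and ranking by −log10 q gave -10.2 points at CBF1. The cause was not tested. Among peaks above the median −log10 q of their list the percentile difference was 75.0 points at MET28 (reported as 40.2), 37.7 at MET32 (19.3), 3.40 at MET30 (1.70) and 8.61 at CBF1 (4.67). Halving a list stretches its percentiles where the removed peaks are mostly of low fold. The larger values therefore do not show a clearer separation of the factors. Ranking by −log10 q gave 25.5 points at MET28 and 2.82 at MET30, and equal list lengths gave 2.87 at MET30 and 9.58 at CBF1. With single libraries left out the percentile difference ran from 0.63 to 2.78 points at MET30 and from 2.84 to 6.49 points at CBF1. With single libraries left out, the difference in distance to the E-box ran from 4 to 19 bp at MET32, from -18.5 to -8.5 bp at MET30 and from 1 to 9 bp at CBF1. Restricting the stretch to 500 bp left a peak in every list for all 4 genes. At MET30 this rested on the intervals alone, since its summits stood 588 to 631 bp upstream. The share of all genes with a peak in every list at 500 bp was not computed. Without Cbf1 replicate 2 no Cbf1 list reaches CBF1, so 3 genes remained for the count of genes with Cbf1 peaks.

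With replicate number as a block the mean differences are the same by construction, such as 1.84 at MET28 (exact sign-flip p 0.5, the smallest 2 pairs allow), so the block says nothing about stability. Same-numbered libraries did not deviate together, with a correlation of 0.068 over 324 loci with a peak in all 4 lists. No paired analysis was possible for CBF1 because the lists that reach it share 1 replicate number only. Lists without read totals, and 2 libraries a factor, limit the precision of every value.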

Other observations

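MET30 carried further peaks inside its reading frame in the Pho4 lists, separate from the peak upstream. There were 3 in each replicate, with summits 742, 1208 and 1674 bp downstream of the start codon in replicate 1 and 729, 1225 and 1680 bp downstream in replicate 2. Their folds were low, at 2.67, 2.67 and 2.90 in replicate 1 and 2.12, 2.43 and 2.46 in replicate 2, and exceeded 37.0% to 45.4% of the first list and 2.76% to 14.1% of the second. The middle summit lay 15.5 and 1.5 bp from an E-box and the last 21.5 and 27.5 bp from another, while the first lay 481.5 and 494.5 bp from any. Neither Cbf1 list had a separate peak inside MET30, though the intervals of the upstream peak ran into the gene in both, to 269178 in replicate 1 and 268761 in replicate 2 on chromosome IX.

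MET32 had a peak inside its reading frame in Cbf1 replicate 1 alone, with a fold of 2.17 and the summit 303 bp downstream of the start. MET28 had a Pho4 peak at its end in replicate 1 alone, with a fold of 2.23 and the summit 574 bp downstream of the start. They lay 678.5 bp (MET32) and 790.5 bp (MET28) from the nearest E-box.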
